A study of Mus musculus with 12 samples.

Results

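Gene expression was compared between mouse embryonic stem cell lines with and without Arkadia while SMAD2/3 receptors were inhibited. The comparison holds 4 of the 12 RNA sequencing libraries of the series, chosen by their labels: WT lines 18 and 26 and Arkadia -/- lines 25 and 39 (called null), each harvested in SB431542 (SB). All lines are of the 129SvEv strain. How they were derived, and whether a line is a single clone, is not given in the sources used here. Cells grown in LIF with GSK3 and MEK inhibitors were moved to N2B27 medium on fibronectin for 24 h, which the submitters describe as giving an epiblast-like state, and then held in 10 µM SB for 4 h. From the same lines, 8 further libraries received 10 ng/ml Activin A for 3 or 6 h after the SB, and they serve here for the estimate of spread and for comparison. The SB libraries therefore compare the genotypes with the inhibitor present and no ligand added, and cells never given SB are not analysed here.

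Arkadia, encoded by Rnf111, is a RING-type ubiquitin ligase that marks SMAD inhibitors such as SnoN (the product of Skil), Ski and SMAD7 for degradation and so favours transcription by SMAD2/3. SB431542 blocks the type I receptor kinases for Activin, Nodal and TGFβ, which phosphorylate SMAD2/3, and leaves the BMP receptor kinases, which phosphorylate SMAD1/5/8, largely free. BMP signalling is known for inducing the Id genes, whose products block helix-loop-helix transcription factors, and embryonic stem cells leaving the naive state switch off genes such as Zfp42 and switch on formative genes such as Fgf5, Otx2 and Dnmt3b.

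Values are FPKM (fragments scaled to locus length and library size) and are given below in the order WT line 18, WT line 26, null line 25, null line 39 unless lines are named. Differences are null minus WT on the log2(FPKM + 1) scale from limma fitted to 12823 genes, with Benjamini-Hochberg adjusted p, and a gene is called when that p is under 0.05. Each genotype is 2 lines, so p-values reflect line-to-line spread, estimated jointly from the 6 groups of the series, and treat the 3 dishes of a line as independent. The SB libraries correlated at 0.9856 to 0.9913 across genes, and their relative depths were 1.01, 1.22, 1.16 and 1.0. Null line 39 had the highest summed FPKM (578104, 584627, 604602 and 722232) and the most named loci at 0 (106, 85, 83 and 141). The part of this in the differences was not tested. Embryonic stem cell markers summed to 912, 842, 867 and 973 FPKM, with Pou5f1 at 601, 567, 562 and 688 FPKM. The median absolute log2 difference was 0.099 between the WT lines, 0.168 between the null lines and 0.133 between the genotype means.

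Rnf111 (chromosome 9, 70425429 to 70503834, mm10), the disrupted gene, was low in both null lines. It stood at 4.27, 3.89, 0.855 and 0.681 FPKM. The difference was −1.52 (SE 0.10, limma adjusted p = 0.001); each of the 4 libraries fitted its label. Of 23 tested genes within 2 Mb of Rnf111 on either side, 0 were called, with a median difference of −0.07 and a range of −0.68 to 0.79.

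In all, 40 of 12823 genes were called in SB (0.312%), of which 32 were higher (0.25%) and 8 lower (0.0624%) in the null lines. Quantile normalization gave 25 higher and 11 lower, and 29 of the 40 were among these calls. At an unadjusted p under 0.05 there were 1134 higher and 776 lower. In each of the 40 called genes the lines of the genotypes did not overlap. Over all tested genes both null lines lay above both WT lines in 24.5% and below both in 22.6%, so such separation alone is frequent. Only 7 called genes differed by more than 1 on the log2 scale. Calls depended on single libraries. Here and in the gene results below, a fit without a line leaves out only its SB library and keeps its Activin libraries. Without WT line 18, WT line 26, null line 25 or null line 39 in SB there were 13, 9, 86 and 12 calls, and Anxa1, Anxa3, Cfap74, Id3 and Rnf111 were called each time. With the SB libraries alone, where the line is the unit, 0 genes were called by limma, against 1104 at an unadjusted p under 0.05.

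**Figure D1:**
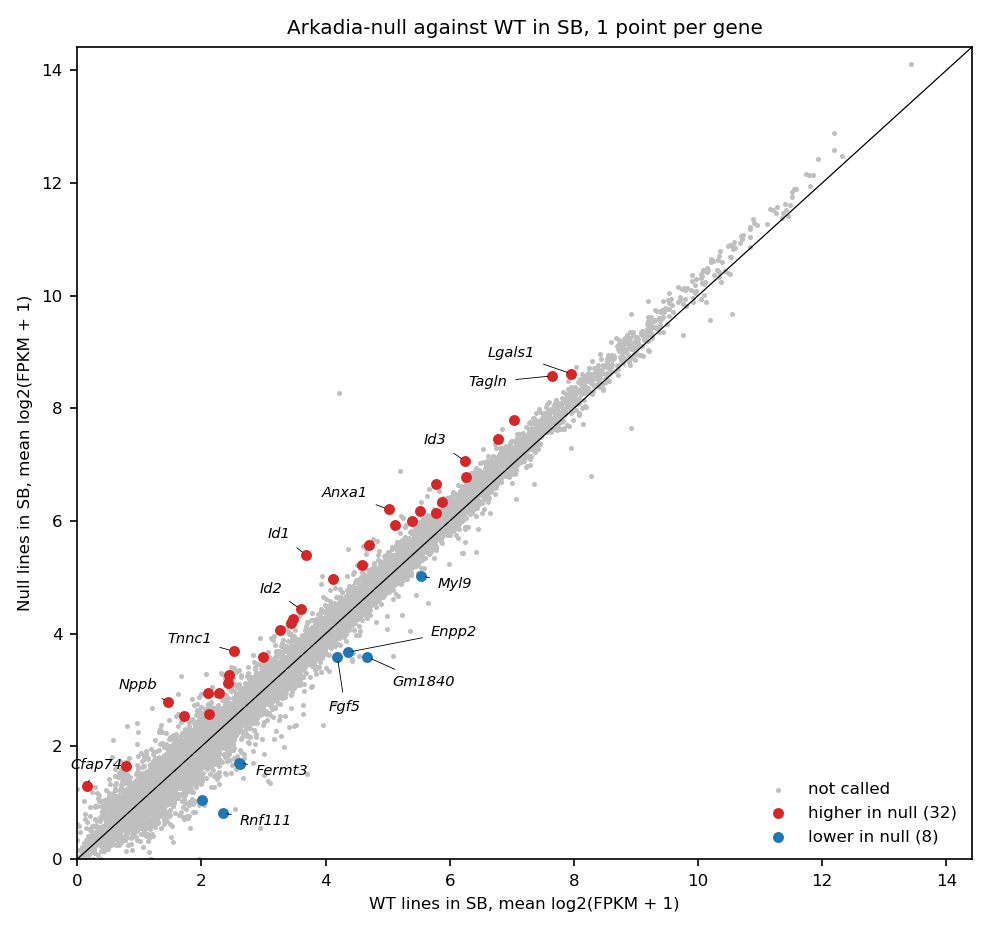
Mean log2(FPKM + 1) of each of 12823 tested genes in the WT lines (horizontal axis) and null lines (vertical axis) in SB, with the 32 genes called higher in red, the 8 called lower in blue and equality as a line. Id1, Anxa1 and Tnnc1 lie above the line and Rnf111, Enpp2 and Fgf5 below it.

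Of the 4 Id genes, Id1, Id2 and Id3 were higher in the null lines. Id1 (chromosome 2, 152736252 to 152737412) stood at 12.2 and 11.4 FPKM in the WT lines and at 47.5 and 36.0 FPKM in the null lines. Its difference, 1.73 (SE 0.17, limma adjusted p = 0.0061), was the highest of all called genes on the log2(FPKM + 1) scale. Without WT line 18 or 26 its adjusted p was 0.055 or 0.066. With a pseudocount of 0.1 the Id1 difference was 1.8, below the 2.89 of Cfap74, a gene of low FPKM. Id3 (chromosome 4, 136143741 to 136145682), the most abundant Id gene, stood at 74.4, 75.5, 136 and 130 FPKM (0.82, SE 0.07, adjusted p = 0.0024). Id2 (chromosome 12, 25093796 to 25096120) stood at 11.7, 10.6, 22.7 and 18.8 FPKM (0.84, SE 0.10, adjusted p = 0.013, and 0.072 or 0.13 without WT line 18 or 26). In all of Id1, Id2 and Id3 both null lines lay above both WT lines. Id4 overlapped between genotypes, at 2.73, 3.55, 3.57 and 2.04 FPKM (−0.14, adjusted p = 0.88).

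RefSeq promoters (GRCm38.p6) matched 3 of the 4 Id genes and are shown because Id2 and Id3 were called and Id4 was not. Each is the 250 bases upstream of the start on the coding strand, and capitals mark GGCGCC, the GC-rich box bound by SMADs, and CAGAC or its reverse complement, the core of the SMAD box. The Id2 window is chr12:25096093-25096342 (minus strand), that of Id3 chr4:136143572-136143821 (plus strand) and that of Id4 chr13:48260866-48261115 (plus strand).
Id2: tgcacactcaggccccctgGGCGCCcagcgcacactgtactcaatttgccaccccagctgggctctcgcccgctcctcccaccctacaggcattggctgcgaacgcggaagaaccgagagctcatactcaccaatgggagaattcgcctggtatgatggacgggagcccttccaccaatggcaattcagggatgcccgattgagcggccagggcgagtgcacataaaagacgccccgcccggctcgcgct
Id3: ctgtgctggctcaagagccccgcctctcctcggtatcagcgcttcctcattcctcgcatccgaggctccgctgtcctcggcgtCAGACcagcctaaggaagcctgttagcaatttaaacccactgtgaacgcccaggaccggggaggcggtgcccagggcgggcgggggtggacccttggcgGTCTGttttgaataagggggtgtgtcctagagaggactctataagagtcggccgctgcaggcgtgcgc
Id4: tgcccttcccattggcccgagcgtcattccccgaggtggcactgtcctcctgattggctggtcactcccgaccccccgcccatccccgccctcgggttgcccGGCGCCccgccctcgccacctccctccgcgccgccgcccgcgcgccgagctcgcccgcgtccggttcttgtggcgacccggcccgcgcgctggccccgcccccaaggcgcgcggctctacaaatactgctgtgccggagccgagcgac
Id2 and Id4 each hold 1 GGCGCC and 0 CAGAC, and Id3 holds 2 CAGAC, 1 on each strand, and 0 GGCGCC. On either strand, GGCGCC is found in 9.6% and CAGAC in 42.2% of 32851 promoter windows of this length, and the motifs share no letters in these windows. The called and uncalled Id genes were thus not separated by these letters.

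Across the list of BMP ligands and targets, 4 of 20 tested members were higher (Id1, Id2, Id3 and Bambi) and 0 lower. Over all tested genes 0.25% were called higher and 0.0624% lower. Members of this and the other lists were chosen with earlier results of these data known. The list's median difference was 0.30 against −0.003 over all genes. Both null lines lay above both WT lines in 10 members and below in 1, where all tested genes gave 24.5% and 22.6%. Bambi, which encodes a pseudoreceptor that dampens TGFβ family signalling, stood at 6.78, 7.18, 10.6 and 11.4 FPKM (0.58, SE 0.08, limma adjusted p = 0.031). Its call was lost without WT line 18, WT line 26 or null line 39 (adjusted p = 0.22, 0.15 and 0.21). Bmp4, a ligand, stood at 2.92, 2.09, 5.20 and 3.71 FPKM (0.63, adjusted p = 0.23), and the homeobox gene Msx2 at 0.679, 0.473, 1.17 and 0.977 FPKM (0.40, adjusted p = 0.23). The receptor gene Bmpr1a had 15.3, 14.9, 15.2 and 15.0 FPKM. Null line 25 carried more of the list's difference than null line 39: against the WT mean the list's median was 0.501 in line 25 and 0.092 in line 39. Gata2, a transcription factor gene read at a partial locus (a locus covering less of the annotated gene than it leaves out), had 7.83 FPKM in line 25, 2.51 in line 39 and 1.72 and 1.87 in the WT lines. Dlx5 and Gata3 were likewise highest in line 25, at 1.40 and 1.89 FPKM.

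Among ligands, receptors, transducers and inhibitors of the SMAD2/3 pathway, Bambi was the single call. Over all tested genes 0.312% were called. Among 8 ligand and co-receptor genes 0 were called, with a median of 0.15 and both null lines above both WT lines in 5 and below in 0. Over all tested genes these shares were 24.5% and 22.6%. Nodal, the main ligand of these cells, stood at 7.99, 7.36, 8.72 and 7.69 FPKM, and Tdgf1, its co-receptor Cripto, at 13.9, 16.6, 19.8 and 23.4 FPKM (0.48, adjusted p = 0.25; reads may be shared with a pseudogene). Of 7 receptor genes 0 were called, with a median of −0.08, and of 8 transducers and partners 0, with a median of −0.05. Smad2 had 8.76, 8.40, 8.82 and 9.33 FPKM and Smad4 had 11.3, 10.1, 11 and 10.1 FPKM. Among 17 pathway inhibitors the median was −0.02, or 0.01 with each library centred on its median. Skil, whose product is a protein target of Arkadia, stood at 10.9, 11.1, 8.81 and 7.97 FPKM (−0.36, SE 0.07, limma adjusted p = 0.075). Both null lines were below both WT lines, but the difference missed the threshold. Ski (−0.13, adjusted p = 0.52) and Smad7 (0.16, adjusted p = 0.41, at 0.383 FPKM or less in every line) were not called. RNA levels say nothing of the amounts of these proteins.

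Lefty1, a feedback antagonist induced by Activin and Nodal, was low in all SB libraries. It stood at 0.0210, 0.0516, 0.109 and 0.127 FPKM. Of 24 tested targets 2 were higher (Bambi and Cyr61), 1 was lower (Fgf5), and the median was 0.11. Over all tested genes 0.25% were called higher and 0.0624% lower. Cyr61, a matricellular gene also induced by YAP, stood at 10.8, 8.91, 17.4 and 17.1 FPKM (0.75, SE 0.09, limma adjusted p = 0.018, and 0.1 or 0.13 without WT line 26 or null line 39). In 13 of these targets both null lines lay above both WT lines in SB and in 5 below, where all genes gave 24.5% and 22.6%. Under Activin the counts were 2 above and 16 below at 3 h, where all genes gave 22.6% and 25.6%, and 5 above and 10 below at 6 h, where all genes gave 23.7% and 25.7%.

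Calcium-binding annexins and S100 proteins, which bind membranes and each other, were the list with the highest share of calls. Its members were chosen with earlier results of these data known, so this rank may reflect that choice. Of 14 tested members 5 were higher (0.25% over all tested genes), 0 lower, and the median was 0.40. The medians were alike in both null lines, at 0.471 in line 25 and 0.463 in line 39. Anxa1 (chromosome 19, 20373426 to 20390935), which encodes annexin A1, stood at 31.9, 30.7, 74.4 and 71.3 FPKM (1.19, SE 0.08, limma adjusted p = 0.0011). Anxa3 (chromosome 5, 96793350 to 96845969) stood at 24.5, 25.2, 46.6 and 46.4 FPKM (0.88, SE 0.06, adjusted p = 0.001). In both annexin genes the spread within a genotype was small beside the difference, and both calls were kept without any single SB library. S100a6 stood at 49.5, 58.0, 96.2 and 103 FPKM (0.88, adjusted p = 0.035), S100a10 at 128, 133, 202 and 243 FPKM (0.76, adjusted p = 0.031) and S100a11 at 40.5, 41.3, 63.1 and 62.9 FPKM (0.61, adjusted p = 0.01). The S100a6 call was lost with quantile normalization (adjusted p = 0.061) and without any single SB library (up to 0.24). S100a10 and S100a11 lost theirs without WT line 18, WT line 26 or null line 39 (adjusted p = 0.22, 0.16 and 0.15 for S100a10, and 0.11, 0.1 and 0.097 for S100a11). Anxa2, the partner of S100a10, stood at 38.3, 35.9, 74.7 and 56.8 FPKM (0.79, adjusted p = 0.1), and Anxa5 at 8.91, 8.70, 15.8 and 11.3 FPKM (0.55, adjusted p = 0.23). Anxa4, Anxa6 and Anxa11 were not called (−0.24, 0.09 and −0.05).

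**Figure D2:**
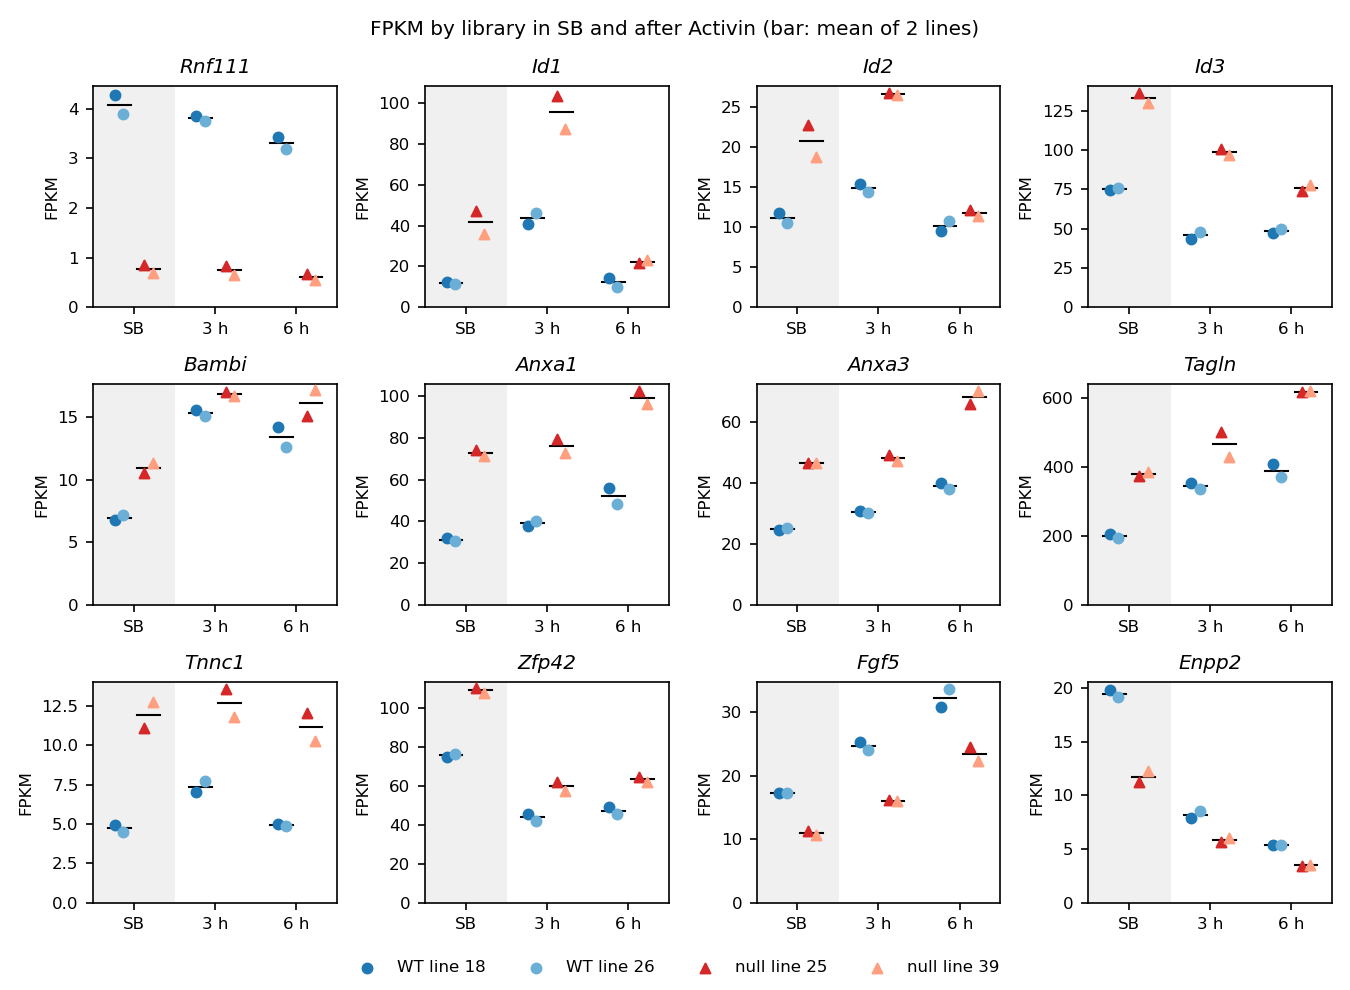
FPKM (vertical axes, from 0) of 12 genes in SB and after 3 or 6 h of Activin (horizontal axes), with circles for the 2 WT lines, triangles for the 2 null lines and a bar at each group mean. In SB (grey) Id1 stood at 12.2 and 11.4 in the WT lines against 47.5 and 36.0 in the null lines, and Fgf5 at 17.3 and 17.2 against 11.3 and 10.7.

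Contractile and cytoskeletal genes moved in both directions. Of 24 tested members 2 were higher and 1 lower (0.25% and 0.0624% over all tested genes), with a median of 0.10. Both null lines lay above both WT lines in 11 members and below in 4, against 24.5% and 22.6% over all genes. Tagln (chromosome 9, 45929627 to 45936137), the smooth muscle actin-binding protein transgelin, stood at 206, 193, 375 and 387 FPKM (0.93, SE 0.09, limma adjusted p = 0.0054). Tnnc1, the calcium-binding troponin of slow and cardiac muscle, stood at 4.95, 4.52, 11.1 and 12.8 FPKM (1.17, SE 0.11, adjusted p = 0.0048). Without WT line 26 their adjusted p were 0.066 and 0.051, and with quantile normalization that of Tagln was 0.052. Myl9, a myosin regulatory light chain, was lower, at 48.1, 43.2, 33.0 and 30.4 FPKM (−0.51, SE 0.07, adjusted p = 0.028, and up to 0.21 without 1 library). Acta2, smooth muscle actin, stood at 57.8, 54.2, 107 and 77.7 FPKM (0.69, adjusted p = 0.18) and Tpm1, a tropomyosin, at 301, 299, 412 and 380 FPKM (0.40, adjusted p = 0.086). Actb stood at 560, 520, 515 and 466 FPKM (−0.14, adjusted p = 0.42).

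Genes of the formative and primed epiblast lay lower in the null lines as a list, with a single call. The members of this list, too, were chosen with earlier results of these data known. Fgf5 (chromosome 5, 98253647 to 98277239), a growth factor gene of the epiblast, stood at 17.3, 17.2, 11.3 and 10.7 FPKM (−0.61, SE 0.07, limma adjusted p = 0.0097). It lost its call without WT line 18, WT line 26 or null line 39 (adjusted p = 0.1 in each case). Of 19 tested members 0 were higher and 1 lower (0.25% and 0.0624% over all tested genes), and the median was −0.26. Both null lines lay below both WT lines in 16 of them and above in 0, where all tested genes gave 22.6% and 24.5%. The median was alike in both null lines, at −0.255 in line 25 and −0.284 in line 39. Dnmt3b, a de novo DNA methyltransferase, stood at 128, 127, 101 and 101 FPKM (−0.34, adjusted p = 0.11) and Dnmt3a, its partner, at 24.1, 23.9, 19.3 and 19.5 FPKM (−0.29, adjusted p = 0.072). Otx2, a homeobox gene, stood at 54.6, 52.6, 46.0 and 45.9 FPKM (−0.22, adjusted p = 0.23), and Zic2 at 18.5, 17.0, 13 and 12.9 FPKM (−0.43, adjusted p = 0.073). Pou3f1, read at a partial locus, stood at 37.1, 35.2, 29.9 and 26.8 FPKM (−0.34, adjusted p = 0.086). None of these 5 passed the threshold.

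Naive pluripotency genes gave 1 call among 14 tested, Zfp42 (Rex1), a marker of the naive state, which was higher (0.25% over all tested genes). It stood at 75.2, 76.6, 110 and 108 FPKM (0.52, SE 0.07, limma adjusted p = 0.023). That call was lost with quantile normalization (0.41, adjusted p = 0.11) and on leaving out any SB library (adjusted p from 0.052 to 0.2). The list's median was 0.17. Both null lines lay above both WT lines in 6 members and below in 2, against 24.5% and 22.6% over all genes. Nanog stood at 3.95, 3.45, 5.44 and 4.98 FPKM (0.40, adjusted p = 0.11), Fbxo15 at 59.7, 60.7, 79.3 and 79.8 FPKM (0.40, adjusted p = 0.19) and Dppa3 at 6.19, 8.49, 12.1 and 9.96 FPKM (0.53, adjusted p = 0.31). Klf5, Esrrb and Tbx3 overlapped between genotypes. Of 15 core pluripotency genes 0 were called (median −0.14). The samples are bulk RNA, in which fewer cells of a kind and less RNA per cell cannot be told apart.

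FGF and ERK pathway genes, which accompany the exit from the naive state, included Fgf5 as their single call of 23 (median −0.14). Over all tested genes 0.312% were called, 0.0624% of them as lower in the null lines. In 11 members both null lines lay below both WT lines and in 2 above, against 22.6% and 24.5% over all genes. Fgf4 stood at 10.7, 9.95, 7.60 and 6.75 FPKM (−0.47, adjusted p = 0.082; partial locus) and Etv4, an ERK-induced ETS factor, at 7.25, 5.67, 4.77 and 3.89 FPKM (−0.48, adjusted p = 0.19). Dusp6, an ERK phosphatase, stood at 42.4, 41.3, 38.3 and 36.3 FPKM (−0.16, adjusted p = 0.34). DNA methylation genes (0 of 8 called, median −0.17) and amino acid and unfolded protein stress genes (0 of 23, median −0.16) had both null lines below both WT lines in 6 and 13 members. Over all tested genes that share was 22.6%. In amino acid and unfolded protein stress, the transporter gene Slc3a2 stood at 7.89, 7.97, 5.54 and 6.49 FPKM (−0.35, adjusted p = 0.31).

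**Figure D3:**
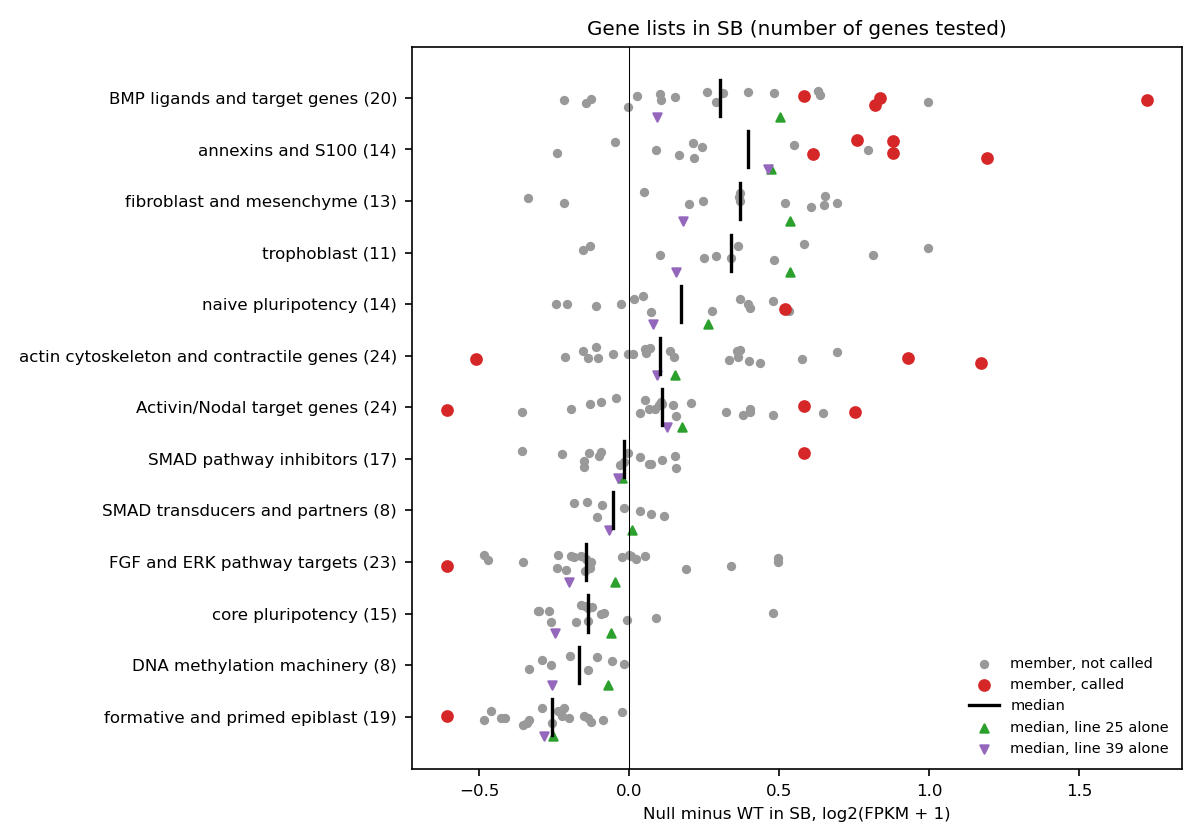
Null minus WT difference on the log2(FPKM + 1) scale in SB (horizontal axis) for the tested members of 13 gene lists (rows), with called members in red, a bar at each list's median and triangles at the medians of null lines 25 and 39 taken alone. The medians run from 0.40 in annexins and S100 to −0.26 in formative and primed epiblast, and those of BMP genes differ between line 25 (0.501) and line 39 (0.092).

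Further genes called higher lay outside the lists above. Lgals1, which encodes the lectin galectin-1 and is the most abundant called gene, stood at 251, 245, 384 and 397 FPKM (0.65, SE 0.09, limma adjusted p = 0.028). With quantile normalization it was 0.435 with an adjusted p of 0.18. Cd9, a tetraspanin, stood at 106, 113, 160 and 189 FPKM (0.67, adjusted p = 0.038). Nppb, the natriuretic peptide BNP, stood at 1.48, 2.07, 5.82 and 6.02 FPKM (1.33, SE 0.21, adjusted p = 0.046). The Nppb call was lost on leaving out any SB library (adjusted p from 0.071 to 0.3), with quantile normalization (0.052) and with no variance trend (0.054). Ccl25, a chemokine, stood at 19, 14, 31.9 and 28.9 FPKM (0.86, adjusted p = 0.038), and the processed transcript Gm28417 at 2.92, 3.71, 6.56 and 6.96 FPKM (0.85, adjusted p = 0.0081). Cfap74, named for cilia and flagella, stood at 0.0981, 0.126, 1.47 and 1.46 FPKM (1.15, SE 0.10, adjusted p = 0.0048). Prkg2, a cGMP-dependent kinase gene, stood at 0.691, 0.745, 2.29 and 2.03 FPKM (0.88, adjusted p = 0.048, and 0.079 with the cell line as a random block). The loci of Cfap74 and Prkg2 covered shares of 0.223 and 0.005 of the gene, so these values describe short stretches. With a pseudocount of 0.1 their differences were 2.89 and 1.47. Cfap74 kept its call without any single SB library, and Gm28417 lost it without null line 39 (adjusted p = 0.097). Lgals1 and Cd9 lost theirs without WT line 18, WT line 26 or null line 39 (adjusted p up to 0.2 and 0.27), Ccl25 without WT line 26, null line 25 or null line 39 (up to 0.16), and Prkg2 without any of the 4 (up to 0.29).

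Abundant genes as a class lay higher in the null lines. Among 1002 genes with a mean of at least 100 FPKM in SB the median difference was 0.20, 0.08 in line 25 and 0.32 in line 39, against 0.03 among 4269 genes from 10 to 100 FPKM. Lgals1, Tagln, S100a10, Cd9 and Id3 belong to this class, and their differences (0.65 to 0.93) are to be read against that shift. Ribosomal protein genes took 16.6, 15.9, 16.6 and 18.1% of named FPKM. The part of abundance in these calls was not tested beyond quantile normalization, under which S100a10 (0.579), Id3 (0.731) and Cd9 kept their calls and Tagln and Lgals1 did not. With each library centred on its median, Cd9 and S100a10 lost theirs.

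The remaining genes called higher, named after their values were seen so that every call is accounted for, were Wls, Zfp869, Flrt2, Gm17661, Serpinb9b, the joined locus of Mmd and RP23-220F20.2, B3galnt1, Camk1, Cyba, Crip1, Plekha2 and Rcn2, with differences of 0.83 (Zfp869) to 0.36 (Rcn2). Wls, the carrier that brings WNT ligands to the cell surface, stood at 22.1, 23.9, 36.0 and 36.6 FPKM (0.64, SE 0.06, limma adjusted p = 0.0061, and 0.071 or 0.063 without WT line 18 or null line 39). Each of the other genes in this group lost its call without at least 1 SB library. With the cell line as a random block the calls of Camk1, Cyba, Flrt2 and Gm17661 were lost (limma adjusted p from 0.058 to 0.067). Gm17661 is annotated as a pseudogene, so reads from a parent gene may enter it.

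Among the falls, Enpp2 (chromosome 15, 54838904 to 54920125), which encodes autotaxin, the enzyme that makes lysophosphatidic acid, stood at 19.8, 19.1, 11.2 and 12.3 FPKM (−0.68, SE 0.07, limma adjusted p = 0.0065). Without WT line 18 or 26 its adjusted p was 0.08 or 0.066. Fermt3, the integrin-binding kindlin-3, stood at 5.07, 5.11, 2.25 and 2.30 FPKM (−0.90, SE 0.09, adjusted p = 0.0054; partial locus, share 0.161). Timm8a2, of a mitochondrial import family, stood at 5.48, 4.85, 2.35 and 2.11 FPKM (−0.93, adjusted p = 0.028). The processed pseudogene Gm1840 stood at 26.5, 22.7, 11.8 and 10.2 FPKM (−1.09, adjusted p = 0.0081) and Plppr3 at 3.45, 2.67, 1.22 and 0.91 FPKM (−0.97, adjusted p = 0.031, and 0.058 with the cell line as a random block; share 0.022). Gm1840 and Timm8a2 are uncertain, since near-identical copies can share reads, and Gm1840 is also a partial locus. Fermt3 lost its call without WT line 18 or 26 (limma adjusted p = 0.056 and 0.066), Gm1840 without WT line 18 or null line 39 (0.08 and 0.097), and Timm8a2 and Plppr3 without WT line 18, WT line 26 or null line 39 (up to 0.22 in both).

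By chromosome, the most calls lay on chromosome 3, with 6 rises among 651 tested genes (S100a6, S100a10, S100a11, Wls, B3galnt1 and Cyr61), and on chromosome 8, with 5 rises and 1 fall among 726. Whether calls are spread unevenly over chromosomes was not tested. On chromosome 8 the median of the tested genes stood 0.101 above the other SB libraries in null line 25, 0.089 below them (−0.089) in WT line 26 and −0.057 in null line 39. With each library centred within each chromosome, a setting chosen after these medians were seen, 42 genes were called, 36 of them among the 40. Of the 6 called genes on chromosome 8 (Ccl25, Zfp869, Zfp42, Plekha2, Cyba and Gm1840), Zfp869 and Cyba lost their calls (limma adjusted p = 0.078 in both).

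Markers of other cell types gave 0 calls in SB. Over all tested genes 0.312% were called, so 0 calls among so few markers says little about them. Fibroblast markers summed to 13.3, 10.7, 16.1 and 11.2 FPKM over 5 of 7 genes found in the table, with 0 called, and both null lines were higher in 2 and lower in 2. Col1a1 and Col1a2 were highest in null line 25, at 1.68 and 2.19 FPKM. Trophoblast markers summed to 9.14, 11.3, 14.2 and 12.1 FPKM (4 of 6 found, 0 called), and extraembryonic endoderm markers to 4.62, 3.62, 3.36 and 5.20 FPKM (4 of 7, 0 called). In trophoblast markers both null lines were higher in 3 and lower in 0, and in endoderm markers higher in 1 and lower in 0. Neural markers summed to 33.1, 28.7, 33.2 and 26.1 FPKM (4 of 5, 0 called), most of it Tubb3, a neuronal tubulin gene, at 25.7, 23.3, 26.0 and 20.6 FPKM. The longer list of fibroblast and mesenchyme genes had a median of 0.37, 0.536 in line 25 and 0.179 in line 39, with 0 of 13 called, and trophoblast genes one of 0.34, 0.535 and 0.155, with 0 of 11 called. Both null lines lay above both WT lines in 8 and below in 2 of these fibroblast genes. In trophoblast genes they lay above in 7 and below in 1, against 24.5% and 22.6% over all genes. Like the BMP list, both lists had their higher median in line 25, and their part in the BMP and contractile differences was not tested. Krt18, a keratin of simple epithelia, had 47.8, 49.0, 96.9 and 75.7 FPKM (0.81, limma adjusted p = 0.078).

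Most SB differences were also seen after Activin, in other dishes of the same lines. Null against WT gave 49 calls at 3 h (0.382%) and 27 at 6 h (0.211%). Of the 40 SB calls, 17 were called at 3 h (42.5% of the SB calls and 34.7% of those at 3 h) and 16 at 6 h (40.0% and 59.3%). The sign was the same in 39 genes at 3 h and in 40 at 6 h, and the lines lay apart in the same direction in 37 and 40. Over all genes both null lines lay above both WT lines in 22.6% at 3 h and 23.7% at 6 h, and below in 25.6% and 25.7%. The same lines recur in each treatment, so this agreement cannot tell a genotype difference from a lasting difference between lines. Anxa1, Anxa3, Cfap74, Gm1840, Id3, Rnf111, S100a11, Tnnc1 and Wls were called in all 3 treatments. The differences were smaller than in SB in 36 genes at 3 h and 35 at 6 h, with a median absolute difference of 0.81 in SB against 0.59 and 0.57 under Activin. Since the genes were chosen by their SB difference, a smaller value elsewhere is built into that count.

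Id1 was at 41.0 and 46.4 FPKM in the WT lines and 104 and 87.7 in the null lines at 3 h (1.11, limma adjusted p = 0.044), and at 14.5, 10.1, 21.9 and 23.0 FPKM at 6 h (0.83, adjusted p = 0.12). Id2 differed by 0.80 at 3 h (adjusted p = 0.016) and by 0.20 at 6 h (adjusted p = 0.39), and Bambi by 0.13 and 0.25 (adjusted p = 0.55 and 0.27). Anxa3 stood at 40.1, 38, 65.8 and 70.1 FPKM at 6 h (0.78, adjusted p = 0.0013). Fgf5 was at 30.7, 33.6, 24.5 and 22.3 FPKM at 6 h (−0.44, adjusted p = 0.056). For formative genes both null lines lay below both WT lines in 16 of 19 in SB and in 11 and 15 after 3 and 6 h, and for BMP genes above in 10, 13 and 9 of 20. Over all genes the shares below were 22.6, 25.6 and 25.7%, and those above 24.5, 22.6 and 23.7%.

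The change of the genotype difference from SB to the mean of 3 and 6 h of Activin was tested in the same fit, and 0 of 12823 genes were called by limma, with 484 at an unadjusted p under 0.05 and a smallest adjusted p of 0.051. With the cell line as a fixed block 2 genes were called, and with it as a random block 3. Skil differed by −0.36 in SB and by −1.16 and −0.96 at 3 and 6 h, a change of −0.71 (limma adjusted p = 0.077). That p was 0.021 with the random block, 0.042 with quantile normalization and 0.046 with median centring. Of the 40 SB calls, 18 had an unadjusted limma p under 0.05 for this change, all with a smaller difference under Activin. Among them were Id1 (−0.75), Id2 (−0.34), Bambi (−0.40), Tagln (−0.38), Anxa1 (−0.26) and Enpp2 (0.23). The 40 were chosen by their SB difference, which is subtracted in this change, so the number and direction of these are in part built in. None of the 40 passed the adjustment in this fit, which does not use the pairing of libraries by line. For these genes it was thus not shown that the SB difference depended on the treatment.

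**Figure D4:**
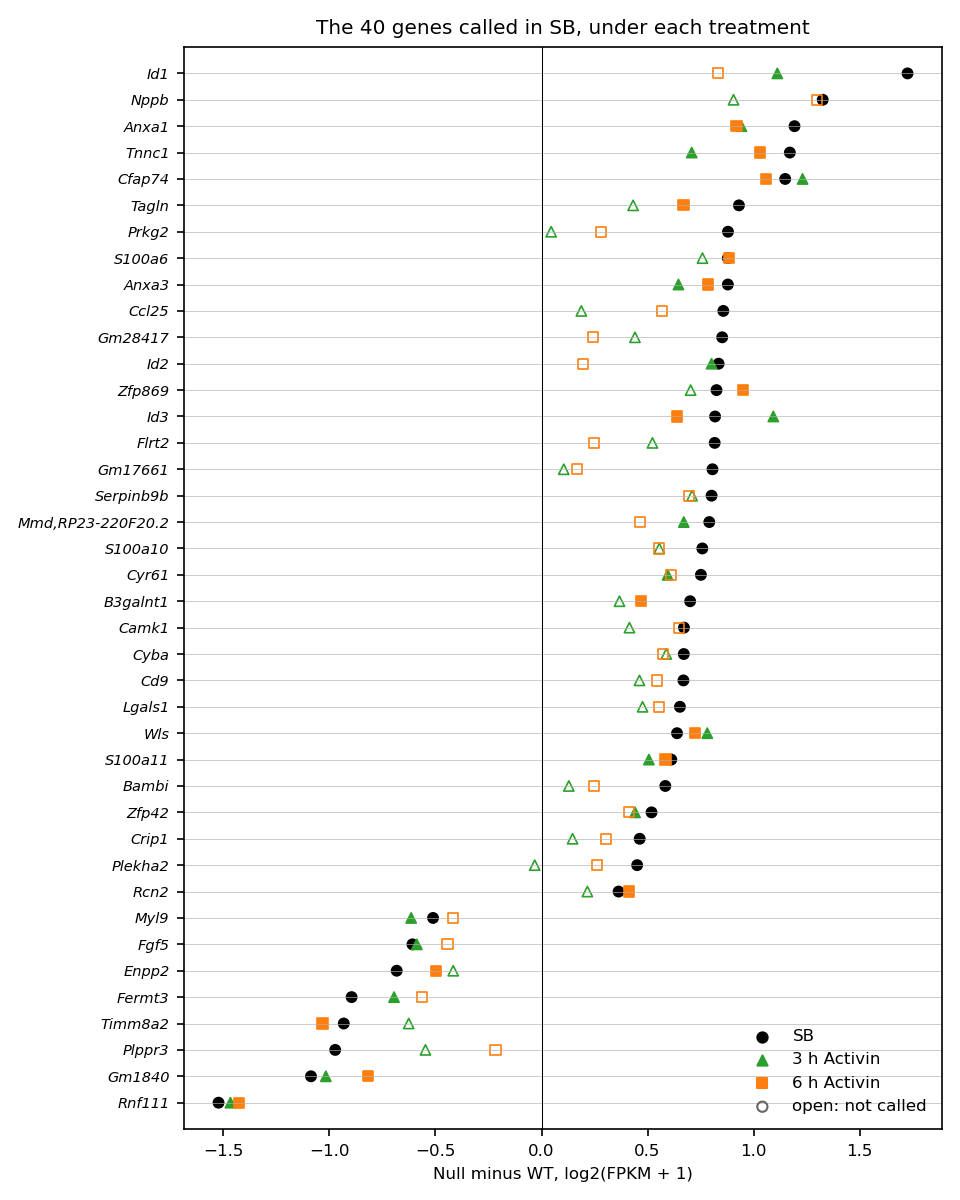
Null minus WT difference on the log2(FPKM + 1) scale (horizontal axis) of the 40 genes called in SB (rows), in SB (black circles) and at 3 h (green triangles) and 6 h (orange squares) of Activin, filled where called. Id1 goes from 1.73 in SB to 1.11 and 0.83, and Rnf111 stays between −1.52 and −1.43.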

How the data were processed

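Libraries were poly(A) RNA primed with random hexamers and read as 50 bp single reads, per the labels' protocols. The deposited values are FPKM per locus from the authors' sequencing company, per the file headers and the labels, on mm10 per the submitters' processing notes. Not given in the sources used here are the aligner, quantifier, strand use and any scaling of libraries. Antisense, overlapping and duplicated genes are therefore uncertain, and read totals are unknown. Relative depths came from the steps between low FPKM values. Coordinates are as in the deposited table.

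Of 17446 loci, 2666 had no name and 27 a status other than OK. Named autosomal loci were kept, with the highest mean FPKM per name (1245 further loci left out), giving 13508 genes, of which 12870 (95.3%) matched GENCODE M21 by symbol; 2743 loci were partial. A gene was tested where 2 or more of the 12 libraries reached an FPKM of 1. The values as log2(FPKM + 1) entered limma 3.58.1 (R 4.3.3) with 6 group means, variances moderated with a trend, 6 residual degrees of freedom and two-sided tests adjusted by Benjamini-Hochberg. This scale understates changes of low genes. The fit was tested on simulated data with 50 genes changed at each of 4 sizes. At log2 differences of 0.5, 1, 1.5 and 2 it called 46, 80, 94 and 94% of them. The simulated libraries were drawn independently, without spread shared by the libraries of a line, so that spread was not tested. The 2275 testable unnamed loci were fitted separately, with 0 called by limma (217 at an unadjusted p under 0.05).

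Same-numbered libraries are the same cell line, so the numbers pair them. Deviations from group means correlated at 0.017 to 0.054 within WT lines and 0.246 to 0.349 within null lines. Lines are nested in genotype, so the block is random for the SB contrast (consensus correlation 0.344).

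Genes named are Rnf111, the 12 largest rises and all 8 falls among calls, the 6 most abundant called genes and members of gene lists. Members and lists were chosen with earlier results of these data known. Alternatives covered the pseudocount, the filter, scaling, variance model, loci per name, block and left-out libraries or lines.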

Additional observations from a re-analysis of the deposited data

Results flagged for a closer look

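With the cell line as a fixed block, the genotype difference changed between SB and Activin in 2 genes that the fit without the block did not call. Gal, the neuropeptide galanin, was near 0 in SB (0.301, 0.185, 0.487 and 0.190 FPKM in lines 18, 26, 25 and 39) and the difference changed by −2.15 (SE 0.144, limma adjusted p = 0.018). Under Activin the WT lines stood at 9.89 and 11.7 FPKM at 3 h against 1.6 and 1.14 in the null lines. Without the block the limma adjusted p of Gal was 0.051. It was 0.025 with quantile normalization, 0.026 with median centring, 0.041 with centring within each chromosome and 0.0053 with the random block. Gm44732 changed by −0.812 (SE 0.0533, adjusted p = 0.018), from a difference of 0.946 in SB to 0.00859 at 3 h and 0.26 at 6 h. Its SB values were 9.33 and 21.6 FPKM in the WT lines and 32.2 and 25.1 FPKM in the null lines, so the WT lines differ among themselves in it.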

How the results depend on the processing

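Directions of the calls named in the text held under the settings run. The number of calls in SB stayed within 36 to 48 under other pseudocounts, filters, scalings, variance models, loci per name and the random block (37 calls, 34 shared with the 40). It was 0 (0 higher, 0 lower) with the SB libraries alone. Leaving out 1 SB library gave 9 to 86 calls (6 to 63 higher and 1 to 23 lower), and leaving out 1 line with its 3 libraries 0 to 2047 (0 to 1592 higher and 0 to 455 lower), with 0 without WT line 18, 2 without WT line 26, 2047 without null line 25 and 10 (7 higher, 3 lower) without null line 39. A lone line is then assumed to vary like the other groups. Rnf111 kept its difference but not its call with the SB libraries alone (−1.52, limma adjusted p = 0.2). Without all 3 libraries of WT line 18 or 26 it also lost its call, at differences of −1.47 and −1.58. Anxa1, Anxa3, Cfap74 and Id3 likewise lost their calls without all 3 libraries of either WT line. These genes kept their calls without those of null line 25, and Cfap74 lost its call without those of null line 39. The random block lost no calls among the 40 other than the 6 given in the text. For the change of the genotype difference with treatment, calls were 2 with quantile normalization or median centring, 1 with centring within each chromosome, 3 with the random and 2 with the fixed replicate block, and 0 to 1 on leaving out replicates; the 1 gene, without only the SB library of WT line 18, was Scly, listed at 0 in WT line 26 in SB.

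List medians moved under several settings, and the cause was not tested. With a pseudocount of 0.1 they were 0.59 for BMP genes, −0.30 for formative genes and 0.60 for fibroblast genes. With FPKM of at least 5 they were 0.63 for BMP genes, 0.58 for annexins and S100, 0.40 for naive genes, −0.06 for SMAD inhibitors and 0.58 for trophoblast genes. With no filter the naive median was 0.06, and with quantile normalization 0.09, against −0.31 for formative genes. With loci of a name summed, annexins and S100 were at 0.55. SMAD inhibitors were at 0.01 with median centring and with centring within each chromosome. Without replicates in turn the medians spanned 0.09 to 0.50 for BMP genes, −0.26 to −0.07 for DNA methylation genes, −0.20 to −0.05 for FGF and ERK genes, −0.04 to 0 for SMAD inhibitors, 0.03 to 0.18 for contractile genes, 0.39 to 0.58 for annexins and S100, 0.18 to 0.54 for fibroblast genes, −0.28 to −0.21 for formative genes, 0.08 to 0.26 for naive genes and 0.16 to 0.54 for trophoblast genes. The precision of low genes is limited by depth, and with 2 lines a genotype a difference between lines cannot be told apart from one between genotypes beyond the spread measured here.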
